A study of Mus musculus with 41 samples.

Results

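MicroRNAs (miRNAs) of the imprinted Dlk1-Dio3 cluster were examined in the lungs of mice that had inhaled surface-coated nanosized titanium dioxide (nanoTiO2). The members were chosen by name as the rows of the lung miRNA table that carry 1 of a fixed list of miRNA numbers assigned to this cluster, with any letter or arm suffix and without star strands. By this rule 49 of the 567 mouse miRNAs in the authors' table were members, and all 49 were also found among the 566 mouse miRNAs of the scanner files. Each 1-color array held the lung RNA of 1 mouse. The nanoTiO2-exposed group had 7 arrays (exposed 1, 3, 7, 9, 13, 17 and 18) and the control group, which breathed filtered air, had 6 arrays (control 6, 8, 10, 12, 20 and 23), numbered as in the labels. Exposure was by whole-body inhalation for 1 hr per day on 11 days, at a monitored concentration of 42.4 mg/m3 that the exposure labels round to 40 mg/m3, and lungs were taken 5 days after the last exposure. All mice were females of 11 to 13 weeks that had been time-mated but had not conceived, labeled C57BL/6 (C57BL/6BomTac in the study's methods) with the exception of control 20, whose label gives C57BL/7 and another exposure date than the other labels. The RNA came from sections of whole left lung, so that fewer cells of a type and less RNA per cell cannot be told apart.

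The Dlk1-Dio3 locus is imprinted, meaning that each of its genes is expressed mainly from the chromosome inherited from 1 parent. The protein-coding genes Dlk1, Rtl1 and Dio3 are expressed from the paternal copy, while the maternal copy makes long noncoding RNAs (Meg3, Rian, Mirg, and a transcript antisense to Rtl1) and the miRNAs that are processed from them. The cluster is known for high activity in the embryo, placenta and brain and for low activity in most adult tissues, and a rise of several of its miRNAs, miR-154 among them, has been described in fibrotic human lung.

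The 49 members derive from 41 hairpins, all on the + strand of chromosome 12 within 171.8 kb (chr12:109571990-109743795, GRCm38.p6, positions and sequences from RefSeq). By position, 9 hairpins lay within the span of Rtl1, 2 within Rian, 8 within Mirg and 22 in none of these or of Meg3. For 8 hairpins both arms were members, not counting the star strands that the rule leaves out. A mature sequence was matched for 46 members, and these had 46 different seeds (bases 2 to 8, the stretch that pairs with target RNAs), so that no 2 of them shared a seed. No sequence was matched for miR-487b, a tested member. The sequences below are those of the other tested members, followed by miR-376a, miR-376b and miR-370, which were present in 1 or 2 exposed mice only. They are written 5′ to 3′ with the seed in capitals.
mmu-miR-494-3p: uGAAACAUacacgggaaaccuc
mmu-miR-127-3p: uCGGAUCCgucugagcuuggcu
mmu-miR-136-5p: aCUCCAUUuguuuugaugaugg
mmu-miR-154-5p: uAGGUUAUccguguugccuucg
mmu-miR-379-5p: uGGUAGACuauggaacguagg
mmu-miR-329-3p: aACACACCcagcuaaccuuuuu
mmu-miR-376a-3p: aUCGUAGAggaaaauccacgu
mmu-miR-376b-3p: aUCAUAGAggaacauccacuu
mmu-miR-370-3p: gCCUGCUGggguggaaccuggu

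The array names miR-494, miR-127 and so on refer to these arms. miR-494 lies at chr12:109715367-109715388 and miR-127 at chr12:109592888-109592909, and both are on the + strand. miR-376a (chr12:109723824-109723844) and miR-376b (chr12:109723508-109723528) are neighbors with closely related sequences, which over 21 positions differed at 3: G4A, A13C and G20U, counted from the 5′ end with the base of miR-376a first. The first of these lies in the seed. miR-379 and miR-411 likewise differed in the seed at G2A only, and miR-300 and miR-381 at G4A only.

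Most of the cluster was not above background in these lungs. A miRNA was called present on an array when its median spot signal exceeded the trimmed mean of the negative control spots by more than 3 trimmed SDs, a limit of 47.9 to 63.7 intensity units over the 13 arrays. Of the 49 members, 30 were present on none of the 13 arrays, 19 on at least 1 exposed array and 8 on at least 1 control array. Only miR-494 was present on every array. Of the 517 other mouse miRNAs, 296 were present on at least 1 exposed array and 236 on at least 1 control array. The members that were present on no array were miR-299, miR-323-3p, miR-323-5p, miR-337-5p, miR-341, miR-369-3p, miR-376c, miR-380-3p, miR-380-5p, miR-381, miR-382, miR-409-3p, miR-409-5p, miR-410, miR-412, miR-431, miR-433, miR-434-5p, miR-485, miR-495, miR-496, miR-539, miR-540-3p, miR-541, miR-543, miR-665, miR-667, miR-673-3p, miR-673-5p and miR-679. Their highest value on any array, as the scanner software's background-subtracted total gene signal, was 6.47 intensity units, for miR-539. Such a signal sets only an upper bound and does not show that the miRNA was absent from the tissue.

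**Figure D1:**
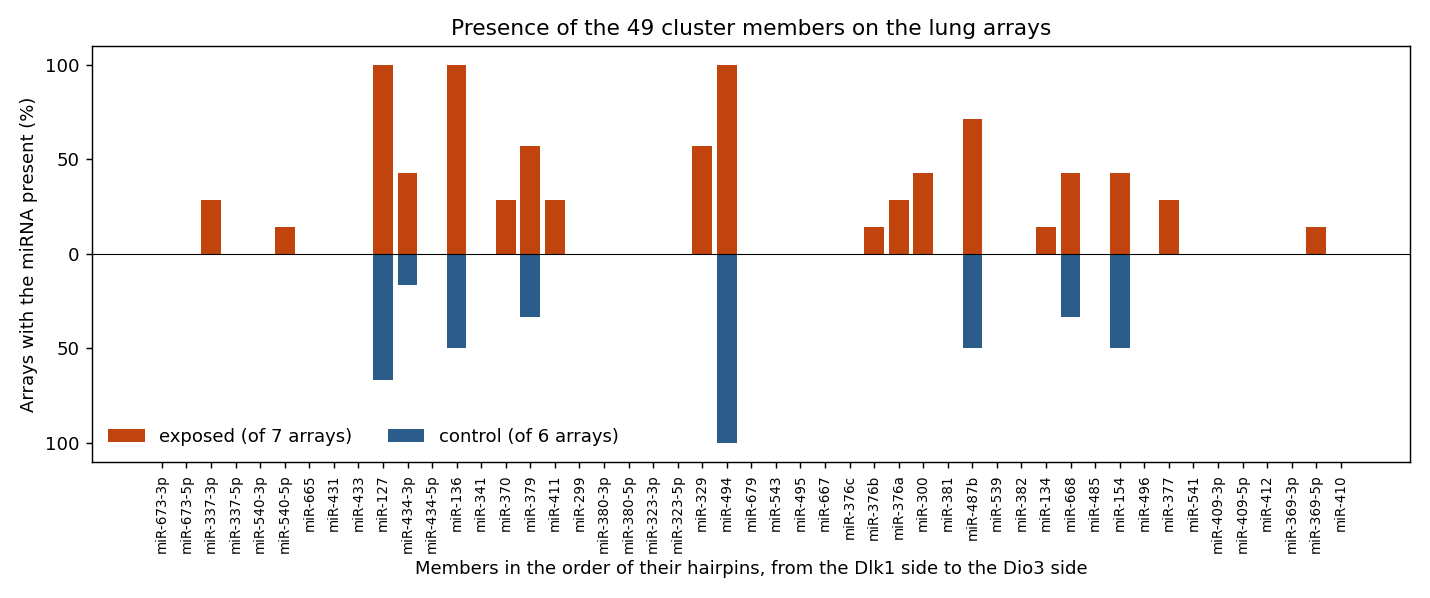
Share of arrays on which each of the 49 members was present, in the order of the hairpins along the chromosome, with the 7 exposed arrays upward and the 6 control arrays downward (percent of arrays). miR-494 was present on all 13 arrays, miR-127 and miR-136 on all 7 exposed arrays, and 30 members on none.

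The members above the limit were spread along the locus. A member was present on some array for 5 of the 9 hairpins within Rtl1, 1 of 2 within Rian, 3 of 8 within Mirg and 10 of the 22 others. Of the 8 hairpins with both arms among the members, miR-434, miR-337, miR-369 and miR-540 had 1 arm present on some array. In none of these 8 were both arms present. miR-434-3p was present on 3 exposed and 1 control array, miR-337-3p on 2 exposed arrays, and miR-369-5p and miR-540-5p on 1 exposed array each. For miR-323, miR-380, miR-409 and miR-673 neither arm was present.

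How many members were present differed more between the mice of a group than between the group medians. On the exposed arrays 3 to 16 members were present (median 5), and on the control arrays 1 to 7 (median 3.5). Exposed 17 had 16 members present, exposed 18 had 15 and exposed 3 had 13, while the other exposed arrays had 3 to 5. These 3 arrays also had the most other miRNAs present, between 251 and 258 of 517, against 186 to 220 on the remaining arrays. With 1 array per mouse, a difference of the mouse and one of its array cannot be told apart. Their summed background-subtracted signals over all mouse miRNAs were 401300, 368900 and 285000 intensity units, while exposed 1, with 349500 units and the highest limit (63.7), had 5 members present. Without these 3 arrays, an alternative chosen after the data were seen, 6 members were present on at least 1 of the 4 exposed arrays and 8 on at least 1 control array.

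**Figure D2:**
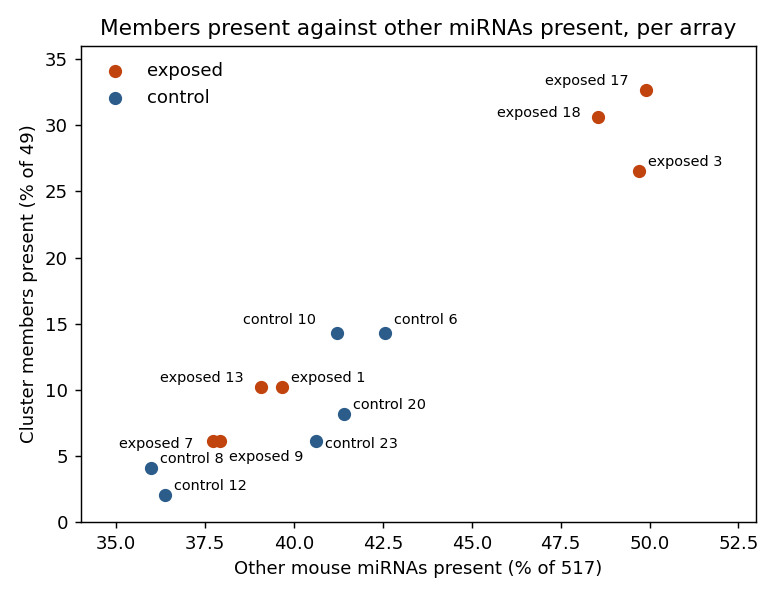
Percent of the 49 members present against percent of the 517 other mouse miRNAs present, 1 point per array. Exposed 3, 17 and 18 sit apart at 26.5 to 32.7% of members and 48.5 to 49.9% of other miRNAs, and the other 10 arrays overlap between groups.

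The scanner software's own detection call gave similar counts, with 17 members detected on some array, 17 on exposed and 11 on control arrays, and with 2 members, miR-494 and miR-127, detected on all 13. For single members the calls could differ. miR-300, miR-377 and miR-329, present on no control array by the limit, were detected by the scanner on 3, 1 and 1 control arrays and on 2, 2 and 3 exposed arrays. With a limit of 5 trimmed SDs, 14 members were present on some array.

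Several members were above the limit in 1 to 3 mice only. miR-376a, of a family whose precursors are known for A-to-I RNA editing in brain, had background-subtracted signals of 4.68, 2.05, -2.83, -0.56, -1.50, 33.6 and 15.7 intensity units in exposed 1, 3, 7, 9, 13, 17 and 18. In control 6, 8, 10, 12, 20 and 23 it had 1.88, -1.37, 2.56, -4.77, 3.47 and 2.51. Exposed 17 and 18 thus stood above all other arrays, exposed 1 was slightly above the highest control, and the remaining exposed arrays lay in the range of the controls.

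For miR-376b the exposed arrays had -0.80, -0.95, -4.04, -4.20, -2.71, 32.3 and 4.88 intensity units in the same order. The control arrays had -0.93, 1.28, 0.70, -3.12, -0.19 and 0.86. Here exposed 17 alone was above the presence limit. All 20 spots of miR-376b and all 20 spots of miR-376a were above the limit on this array, and each miRNA's 2 probes read 69.5 and 73.5 units (miR-376b) and 68.0 and 76.2 units (miR-376a) before background subtraction.

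miR-370, which lies within Rian, was highest in another mouse. Its exposed values were 2.12, 1.26, 1.07, 0.53, 0.44, 17.7 and 37.7 intensity units, and its control values were 7.01, 0.20, -0.29, -2.62, 3.92 and 2.70. Exposed 18 was highest and exposed 17 next, and all 20 spots were above the limit on both arrays. Exposed 17 and 18 shared a slide with control 20 and control 23, which had none of these 3 miRNAs present.

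**Figure D3:**
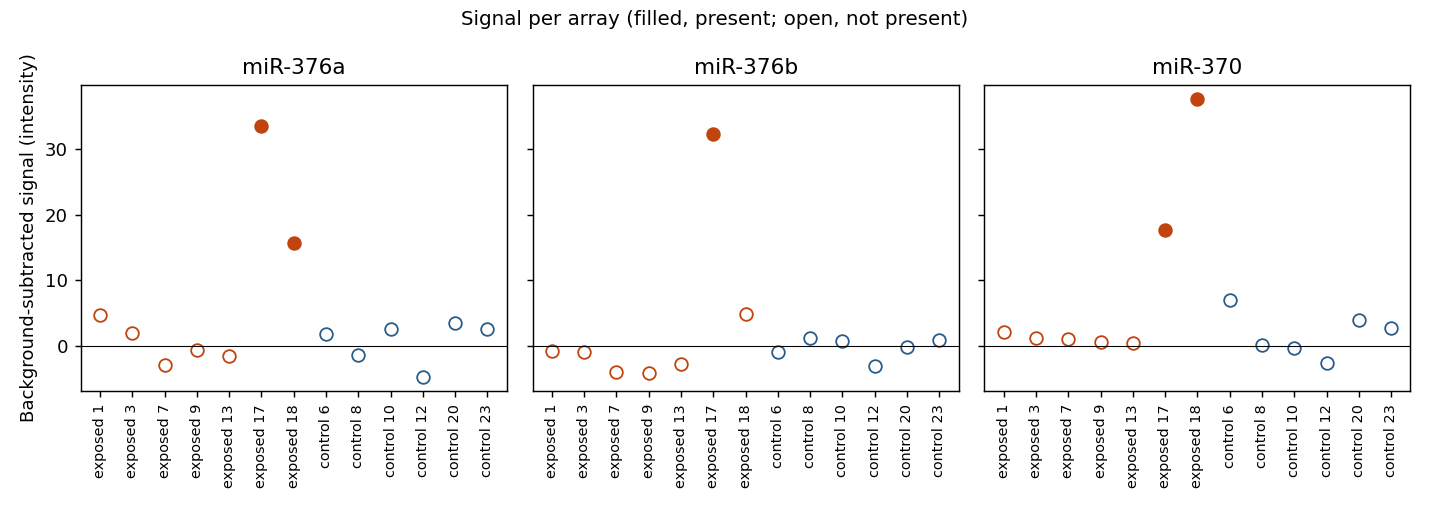
Background-subtracted total gene signal (intensity units) of miR-376a, miR-376b and miR-370 on each of the 13 arrays, exposed in red and control in blue, with filled points where the miRNA was present. Exposed 17 reached 33.6 and 32.3 units for miR-376a and miR-376b, and exposed 18 reached 37.7 units for miR-370.

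Other members were present on a few arrays with lower signals. miR-668 was present on 3 exposed and 2 control arrays, miR-300 on 3 exposed arrays, miR-377 and miR-411 on 2 exposed arrays each, and miR-134, a miRNA known from dendritic spines of neurons, on exposed 18 only. The highest background-subtracted signals were 19.1 units for miR-668 and 20.7 units for miR-434-3p, both in exposed 3. They were 18.4 for miR-300, 8.64 for miR-377 and 13.9 for miR-411, all in exposed 17, and 9.21 for miR-134. In exposed 3 miR-337-3p, miR-369-5p and miR-540-5p were at 10.3, 10.3 and 11.3 units. These highest values all came from the 3 exposed arrays with the most miRNAs present.

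The comparison of exposed with control lungs asked whether inhaled nanoTiO2 changed the members. The signals were quantile normalised and not background subtracted, as in the study's methods. The test was made on the log2 scale over those miRNAs that were present, in one group or the other, on 50% of its arrays or more. This left 222 of 566 mouse miRNAs (39.2%) and 7 of the 49 members (14.3%): miR-494, miR-127, miR-136, miR-487b, miR-154, miR-379 and miR-329. miR-329 and miR-379 passed only through the exposed arrays and miR-154 only through the control arrays. Because background is not subtracted, differences of members near the limit are understated on this scale.

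None of the 7 tested members passed the threshold (limma, adjusted p below 0.05 over all 222 tested miRNAs), beside 4 of 222 tested miRNAs (1.80%). At an unadjusted p below 0.05 there were also 0 members, against 34 tested miRNAs (15.3%), and the gene-specific variance test called 0 members as well. The 4 miRNAs called were all higher in exposed lungs and included miR-449a and miR-34b-5p, 2 of the 6 ciliated cell markers. The other 2 of these markers that were tested, miR-34c and miR-34b-3p, had adjusted p-values of 0.055 and 0.63 (limma). In no member were the values of the groups separate, as they were in 1.35% of the tested miRNAs. Of the 7 members, 6 had a positive and 1 a negative difference. Their median was 0.024 on the log2 scale, against -0.030 over all tested miRNAs. Among the positive ones, miR-329 and miR-379 entered the test only through the exposed arrays, which favors a positive difference. miR-154, also positive, entered only through the control arrays. The count and the median are therefore no evidence of a direction. With arrays scaled to their 75th percentile instead, 5 of the 6 positive differences turned negative and only miR-494 stayed positive.

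**Figure D4:**
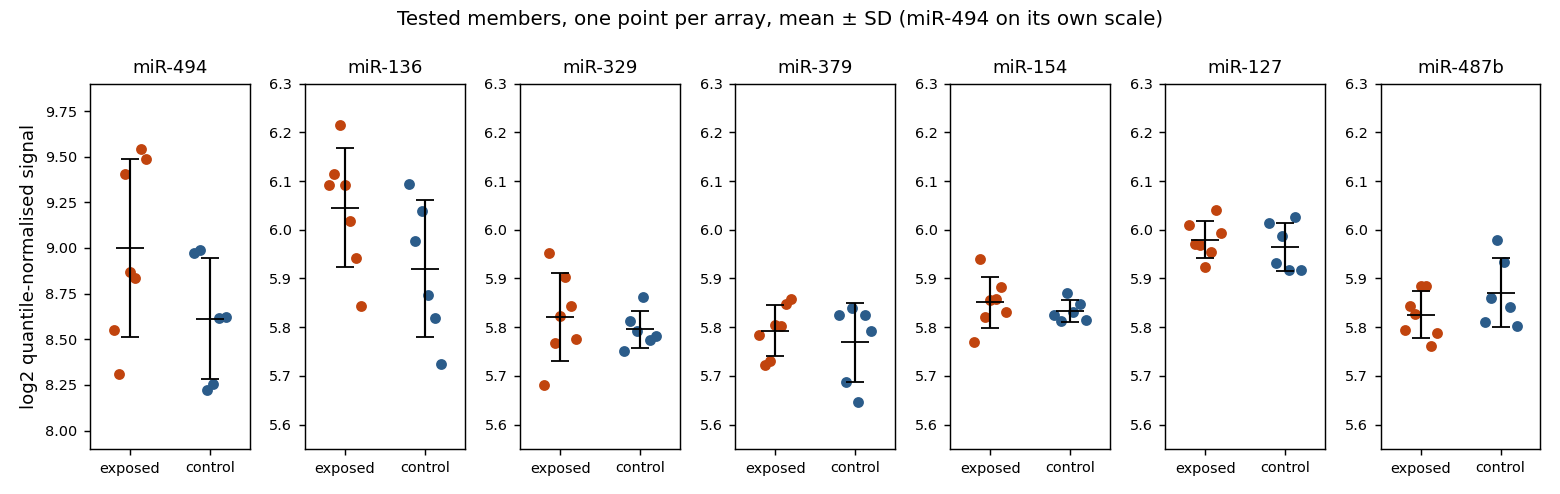
log2 quantile-normalised signal of the 7 tested members on each array (points), with mean and SD of the 7 exposed (red) and 6 control (blue) arrays, in order of the difference between groups. The groups overlapped for each member, and the small differences of miR-136, miR-329, miR-379, miR-154 and miR-127 had the opposite sign when arrays were scaled to the 75th percentile.

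miR-494, one of the hairpins between miR-379 and miR-410, was the member with a signal far above the limit. Its log2 signals were 8.55, 8.31, 9.41, 8.87, 8.84, 9.54 and 9.49 in exposed 1, 3, 7, 9, 13, 17 and 18, and 8.97, 8.99, 8.22, 8.25, 8.62 and 8.62 in control 6, 8, 10, 12, 20 and 23. Exposed 7, 17 and 18 were above every control array, while exposed 1 and 3 were below the control mean. Exposed lungs had a mean of 9.00 ± 0.49 (SD, n = 7) and control lungs of 8.61 ± 0.33 (SD, n = 6), a difference of 0.39 on the log2 scale (95% confidence interval -0.077 to 0.85). The limma adjusted p was 0.35 and a two-sided exact permutation test that ran through each of 1716 array splits gave p = 0.13. Its 2 probes differed by 0.35 and 0.43, neither past the threshold (limma, adjusted p 0.42 and 0.45). The background-subtracted signal in intensity units was 821 ± 479 (SD, n = 7) for exposed lungs against 400 ± 176 (SD, n = 6) for control lungs, and ran from 421.6 to 1565 and from 161.5 to 697.5 units. These units were not normalized between arrays. The summed signal over all mouse miRNAs was also higher on exposed arrays, with a median of 285000 against 219650 units.

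The direction of the miR-494 difference was not the same on each slide. The arrays lay on 3 slides, each with 2 or 3 exposed and 2 control arrays. On slide 1 the mean was 9.51 in exposed 17 and 18 and 8.62 in control 20 and 23, a difference of 0.89. On slide 3 it was 8.85 in exposed 9 and 13 and 8.24 in control 10 and 12, a difference of 0.61. On slide 2 it was 8.76 in exposed 1, 3 and 7 and 8.98 in control 6 and 8, a difference of -0.23. On slides 1 and 3 the groups did not overlap, and on slide 2 the control arrays lay between exposed 7 and the other exposed arrays. Slides 1 and 3 held only 2 arrays of each group, so a separation there arises easily by chance. The share of other miRNAs separated within these slides was not counted. With slide as a fixed block the difference stayed at 0.39 (limma, adjusted p = 0.19).

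**Figure D5:**
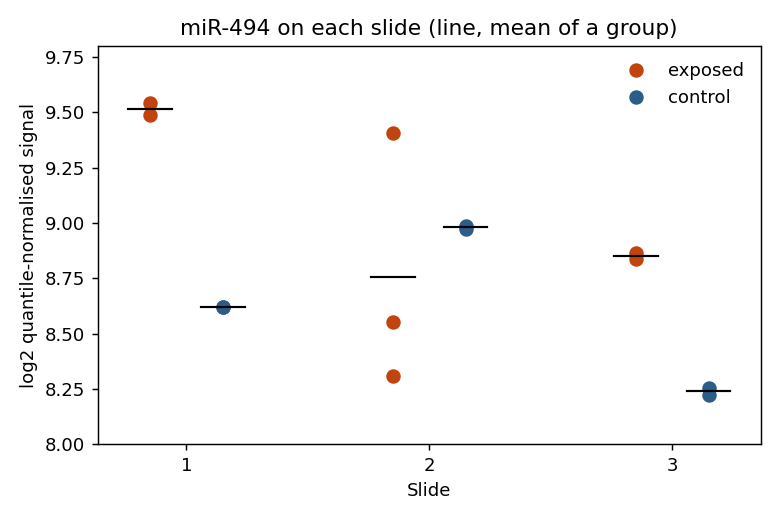
log2 quantile-normalised signal of miR-494 on the 3 slides, with 1 point per array and a line at the mean of exposed (red) and control (blue) arrays. Exposed arrays were higher by 0.89 on slide 1 and 0.61 on slide 3 and lower by 0.23 on slide 2 (difference -0.23).

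miR-136 and miR-127 lie opposite Rtl1 and are known to guide cleavage of the Rtl1 transcript, to which they are fully complementary. For miR-136 the exposed arrays had log2 signals of 6.09, 6.12, 6.21, 6.09, 6.02, 5.94 and 5.84 and the control arrays 6.09, 5.98, 6.04, 5.87, 5.82 and 5.72. Of the 7 exposed arrays, 6 were above the control mean, and the groups overlapped. The mean was 6.05 ± 0.12 (SD, n = 7) against 5.92 ± 0.14 (SD, n = 6), a difference of 0.13 (95% confidence interval -0.028 to 0.28, limma adjusted p = 0.36, exact permutation p = 0.12). Within slides 1, 2 and 3 it was 0.12, 0.10 and 0.10, and the adjusted p was 0.097 when slide entered the limma fit as a fixed block. The background-subtracted signal in intensity units, not normalized between arrays, was 25.3 ± 9.96 (SD, n = 7) for exposed lungs against 12.7 ± 8.65 (SD, n = 6) for control lungs. Present calls were made on 7 of 7 and 3 of 6 arrays. Scaled to the 75th percentile over miRNAs detected on all arrays, the difference was -0.23.

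For miR-127 the exposed arrays had 6.01, 5.97, 5.97, 5.92, 5.95, 6.04 and 5.99 on the log2 scale and the control arrays 6.01, 5.93, 5.99, 5.92, 6.03 and 5.92. The groups covered nearly the same range. The difference was 0.015 (95% confidence interval -0.059 to 0.088, limma adjusted p = 0.89, exact permutation p = 0.55). Background-subtracted signals were 35.3, 26.5, 11.8, 10.2, 11.5, 32.5 and 27.9 intensity units in exposed and 21.0, 12.2, 16.0, 8.45, 16.4 and 12.1 in control lungs. Before scaling between arrays, exposed 1, 3, 17 and 18 thus stood above all controls. The summed signals of these arrays over all mouse miRNAs were also the highest, at 349500, 285000, 401300 and 368900 units. The highest control array had 256200 units. The part of this in the miR-127 values was not tested.

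miR-487b was the member with a negative difference. The exposed arrays had log2 signals of 5.79, 5.84, 5.83, 5.88, 5.88, 5.76 and 5.79 and the control arrays 5.81, 5.86, 5.98, 5.93, 5.84 and 5.80. No exposed array was above every control array, and control 10 and 12 were highest. The difference was -0.045 (95% confidence interval -0.13 to 0.040, limma adjusted p = 0.61, exact permutation p = 0.20), and it was negative within each slide. It was 0.13 with no normalization between arrays, a setting chosen after the data were seen.

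miR-154 was present on 3 exposed and 3 control arrays. Its log2 signals were 5.77, 5.94, 5.82, 5.86, 5.86, 5.88 and 5.83 in exposed and 5.83, 5.81, 5.87, 5.83, 5.85 and 5.82 in control lungs. Exposed 1 was lowest and exposed 3 highest, with the controls between them. The difference was 0.017 (95% confidence interval -0.054 to 0.089, limma adjusted p = 0.84, exact permutation p = 0.49).

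miR-379, which opens the run of hairpins that ends with miR-410, had 5.78, 5.72, 5.73, 5.80, 5.80, 5.85 and 5.86 in exposed and 5.82, 5.69, 5.84, 5.65, 5.82 and 5.79 in control lungs on the log2 scale. The difference was 0.024 (limma adjusted p = 0.83, exact permutation p = 0.54), well inside the spread of either group. miR-329 was present on 4 exposed arrays and no control array, so that its control level is only an upper bound and no fold is given. Its log2 signals were 5.68, 5.95, 5.77, 5.82, 5.90, 5.84 and 5.78 in exposed and 5.75, 5.81, 5.79, 5.86, 5.77 and 5.78 in control lungs. The measured difference was 0.026 (95% confidence interval -0.069 to 0.12, limma adjusted p = 0.81, exact permutation p = 0.53), and exposed 3 and 13 were above every control.

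Whether the tested members varied together from mouse to mouse could not be read from these values. All but miR-494 had signals near the presence limit, and the correlations depended on the scaling. Over the 13 arrays, which share their normalization, the deviations of the 7 members from their group means had pairwise correlations with a median of 0.040 over 21 pairs, against 0.049 over the 24531 pairs of all tested miRNAs. The highest were 0.80 for miR-154 with miR-329 and 0.61 for miR-127 with miR-379, and the lowest was -0.58 for miR-487b with miR-494. With arrays scaled to the 75th percentile over miRNAs detected on all arrays, the median was 0.96 for the members and 0.42 for all tested miRNAs.

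The rest of the cluster on the arrays gave little signal. Of 24 further miRNAs of the locus, 13 were star strands of member hairpins (miR-127*, miR-136*, miR-154*, miR-299*, miR-300*, miR-376a*, miR-376b*, miR-376c*, miR-382*, miR-411*, miR-431*, miR-433* and miR-485*). The others were miR-453, miR-493, miR-544, miR-654-3p, miR-654-5p, miR-666-3p, miR-666-5p, miR-758, miR-770-3p, miR-770-5p and miR-882. miR-299* was present on 3 exposed and 2 control arrays, miR-411*, miR-431*, miR-433* and miR-485* on 1 exposed array each, and the other 19 on none. The member miR-411 was present on 2 exposed arrays, so each arm of its hairpin was present on some array. None of the 24 passed the presence filter, so none was tested.

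Transcripts of the same locus were measured on separate 2-color mRNA arrays of lung, with 7 exposed and 6 control mice and the RNA of each mouse over a common reference RNA. Mouse numbers of these arrays do not match those of the miRNA arrays (12, 20 and 23 are exposed in one set and control in the other), so no mouse was followed across both. Of 9 genes looked for, 6 had a probe, and Rtl1, Dio3os and Begain were not found on the array. None of the 13 probes of the locus passed the threshold (limma, adjusted p below 0.05 over all 41030 probes), beside 83 of all probes (0.202%). At an unadjusted p below 0.05 there was 1 probe of the locus, of Rian, against 8.20% of all probes. This Rian probe was well above background on no array.

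Meg3, listed as Gtl2, is the maternally expressed noncoding RNA at the head of the miRNA genes. Of its 5 probes, 3 were well above background on all 13 arrays. The one with the highest ratios had log2 ratios over the reference of 1.47, 1.57, 1.42, 1.87, 1.92, 1.45 and 1.82 in exposed 1, 7, 12, 13, 19, 20 and 23 and 1.55, 1.71, 1.15, 1.01, 1.69 and 1.71 in control 24, 26, 27, 29, 32 and 34. Control 27 and 29 were lowest, and the other controls lay among the exposed mice. The difference was 0.18 (95% confidence interval -0.11 to 0.46, limma adjusted p = 0.75). The other 2 measured probes differed by 0.15 and 0.073 (limma, adjusted p 0.78 and 0.85). With normexp background correction the 3 differences were, in the same order, -0.19, -0.17 and 0.015. For the first 2 of these probes, this was the 1 setting of 19 alternatives that turned the sign. Of the remaining 2 probes, 1 was well above background on no array and 1 on 1 exposed array.

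Dlk1, a paternally expressed membrane protein of the Notch ligand type known from progenitor cells, was well above background on all arrays with both probes. With the first probe its log2 ratio averaged -3.07 ± 0.086 (SD, n = 7) among exposed and -3.13 ± 0.13 (SD, n = 6) among control mice, and with the second -3.00 ± 0.065 and -3.04 ± 0.13, below the reference in every mouse. The differences were 0.062 and 0.041 (limma, adjusted p 0.79 and 0.86). With normexp background correction they were 0.18 and 0.38 (limma, adjusted p 0.61 for both). Mirg, the noncoding RNA that hosts the distal miRNAs, was well above background on 7 exposed and 5 control arrays and differed by 0.027 (95% confidence interval -0.086 to 0.14, limma adjusted p = 0.91).

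Both Rian probes and the Dio3 probe, for the enzyme that inactivates thyroid hormone, were well above background on no array, so no difference is given for them. Wdr25, a protein-coding neighbor on the Dlk1 side, differed by 0.096 and 0.019 with its 2 probes (limma, adjusted p 0.74 and 0.94). Lung markers (Sftpc, Sftpa1, Scgb1a1 and Cav1) and fibroblast markers (Col1a1, Col1a2, Pdgfra and Dcn) were looked up by the best probe of each gene. By that probe each was well above background on all 13 mRNA arrays.

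Marker miRNAs listed for several cell types were looked up on the miRNA arrays. The 2 endothelial, 5 epithelial and 2 smooth muscle markers were present on all 13 arrays. So were the 3 listed as lymphoid (miR-150, miR-142-3p and miR-142-5p), miR-223 of myeloid cells and the red cell markers miR-144 and miR-451. The neuronal markers miR-124, miR-9 and miR-138 were present on none. The liver marker miR-122 was present on all 13, so presence of a marker does not by itself show that its cell type was there. Of the 6 heart and skeletal muscle markers, miR-1, miR-133a and miR-133b were present on all 13 arrays, miR-208b on 3, miR-208a on 2 and miR-499 on none. Of the 6 ciliated cell markers, miR-34b-3p, miR-34b-5p, miR-34c and miR-449a were present on all 13 arrays and miR-449b and miR-449c on none.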

How the data were processed

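Groups were taken from the labels. The members, gene lists and tests were chosen with earlier results of these data known. The authors deposited scanner output from Feature Extraction 9.5.1.1 (miRNA) and 9.5.3.1 (lung mRNA) as intensity values that are not normalized, and tables in log2 units, quantile normalized for miRNA and LOWESS normalized for mRNA, used here as an alternative. The authors' miRNA table correlated at 0.9993 to 0.9999 per array with the values used here.

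For miRNA, median spot intensities were taken to log2 and quantile normalized. Spots marked as outliers were then left out, and medians were taken over the 20 spots (19 for 1 member) of each miRNA by probe and then by miRNA. Presence used negative control spots trimmed by a share of 0.05 at each end, a share chosen here. For mRNA, log2 ratios of Cy5 (lung) over Cy3 (reference) without background correction were normalized by loess and averaged over the spots of each probe. The group tests used limma 3.58.1 (lmFit, eBayes) in R 4.3.3, with Benjamini-Hochberg adjustment over all miRNAs or probes tested. The methods were tested on simulated data. p-values measure the spread between single arrays, 1 per mouse. Slide was not a term of the main fits, so this spread includes differences between slides. The number of arrays limits the precision. Every member is named. Tested members have their value on each array, and all but miR-379 their full statistics, by a rule that takes the 3 highest and 3 lowest differences. Alternatives were normexp (offset 50), scaling to the 75th percentile, total gene signal (floor 1), the authors' table, other presence filters, probe level, gene-specific variance, slide or hybridization block as a term, and leaving out each array.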

Additional observations from a re-analysis of the deposited data

Results flagged for a closer look

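In 1 of 56 sets of values searched (members present on any array and probes of the locus, per group), 1 sample lay far from the others of its group, by the gap to its nearest neighbor divided by the group's range (Dixon's test at the 95% level). Chance gives about 1 in 20 such sets where the sets were not chosen by their values. The 1 set was miR-376b in exposed 17, with a background-subtracted signal of 32.3 intensity units against 4.88 in the nearest exposed mouse, a gap of 0.751 of the range. This member entered the search only through its presence on exposed 17, so the chance rate does not apply to it. The array also had the most miRNAs present (274), and the part of this in the result was not tested.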

How the results depend on the processing

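Under each of 26 settings, 0 members were called, and 0 of the locus probes under each of 19 settings of the mRNA arrays. The adjusted p of miR-494 ran from 0.064 to 0.68. Scaled to the 75th percentile over miRNAs detected on all arrays, the median difference of all tested miRNAs moved from -0.030 to -0.20, that of the members was -0.34, 1 miRNA was called, and miR-127, miR-136, miR-154, miR-329 and miR-379 differed by -0.31, -0.23, -0.34, -0.36 and -0.36. Scaled over all mouse miRNAs these were -0.10, -0.024, -0.13, -0.15 and -0.15, with a members' median of -0.13. Joint variation had a median correlation of 0.96 under the first scaling. With no normalization, added after the data were seen, the median of all tested miRNAs was 0.35, that of the members 0.20, miR-487b differed by 0.13 and 15 miRNAs were called. Small differences also turned for miR-127 with normexp (-0.0011) and for miR-379 in the authors' table (-0.00053). With total gene signal the members' median was 0.11, and miR-136, miR-379, miR-487b and miR-329 differed by 0.70, 0.35, -0.39 and 0.11. The median was 0.13 over the 3 members present on all arrays of a group. The count of miRNAs called, 4, was 2 with every mouse miRNA tested, 2 with gene-specific variance, 8 of 503 at the probe level, 23 with slide as a fixed and 20 as a random block, and 15 with the hybridization block. Leaving out each array gave 2 to 7 calls, with 2 without exposed 1, exposed 3, control 12 or control 20 and 7 without control 8, and a members' median from 0.013 to 0.034. Differences then ran from -0.00091 (without control 12) to 0.038 for miR-379, 0.0028 to 0.031 for miR-154, 0.0041 to 0.049 for miR-329 and 0.0045 to 0.027 for miR-127. Without exposed 3, 17 and 18, a setting added after the data were seen, 9 members were present on some array. On the mRNA arrays the 83 probes called became 15 with normexp, 5 with median centering and 54 without control 29. No paired analysis was possible because exposed and control mice share no replicate numbers. Differences of members near the presence limit were not detectable, which does not show that there were none.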
